A study of Homo sapiens with 6 samples.

Results

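The genes described are 8 that encode histone variants made outside the S-phase histone clusters, together with ANP32E, which encodes a histone chaperone. H2AZ1 and H2AZ2 encode the variant H2A.Z, H2AX and H2AJ encode the variants H2A.X and H2A.J, MACROH2A1 and MACROH2A2 encode macroH2A, and H3-3A and H3-3B encode H3.3. They were chosen by symbol and function, and all 9 were found among the 37822 gene rows of the expression table. Their mRNA was compared between Huh7 cells infected with a lentivirus carrying VPS72 and Huh7 cells infected with a FLAG lentivirus, with 3 libraries in each group. Huh7 is a human hepatocellular carcinoma line, the virus was produced in HEK293T cells, and infection lasted 24 h in both groups. The labels give the FLAG cells as wild type and the VPS72 cells as overexpressing. They do not say whether a group's libraries were grown separately, so the spread behind each p-value may be technical. In bulk RNA, fewer cells that express a gene and less RNA per cell cannot be told apart.

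Nucleosomes are built mainly from histones whose mRNAs are made during S phase and end in a stem-loop. Most variant histones come from separate genes that are transcribed throughout the cell cycle, and dedicated machines place many of them at chosen sites. H2A.Z lies at promoters and enhancers, where the SRCAP and TIP60 complexes put it in the place of H2A. VPS72, also called YL1, is a subunit of both complexes that binds the H2A.Z-H2B dimer. ANP32E takes H2A.Z off chromatin again, so VPS72 and ANP32E act on the same variant from opposite sides. The comparison therefore shows whether the mRNAs of the histone variants and of the H2A.Z remover differ when VPS72 mRNA is abundant. Only mRNA was measured, not VPS72 protein or its entry into the complexes, and not histone protein or its place on chromatin.

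The libraries held 23969324 to 29091824 estimated counts in the VPS72 group and 21345279 to 25352335 in the FLAG group. VPS72 itself had 27483 to 33086 counts in the VPS72 libraries, against 511 to 686 in the FLAG libraries, in the direction of the labels. All 10 hepatocyte markers were expressed, with a summed level of 21700 to 22530 CPM in VPS72 and 19240 to 20040 CPM in FLAG libraries. In edgeR 7 of the 10 were called higher, AFP and ALB among them, against 0.421% of all tested genes. Of the 6 HEK293T markers, NEFL was at 0 in every library and the summed level was 5.63 to 6.89 CPM in VPS72 and 6.51 to 9.67 CPM in FLAG libraries, nearly all of it from GATA3. The 6 fibroblast markers summed to 205 to 212 CPM in VPS72 and 171 to 185 CPM in FLAG libraries, nearly all of it LUM, while DCN was at 0 in every VPS72 library. LUM was also called higher (edgeR, adjusted p = 0.00745), 1 of 5 tested fibroblast markers. The 6 immune markers summed to 13.6 to 14.4 CPM in VPS72 and 10.9 to 12.5 CPM in FLAG libraries, mostly LYZ, with PTPRC at 0 counts in all but FLAG replicate 2. The 6 endothelial markers summed to 4.13 to 4.93 CPM in VPS72 and 2.84 to 4.55 CPM in FLAG libraries. The hepatocyte, fibroblast and immune sums did not overlap between the groups, where 17.2% of single tested genes did not. The part of these markers in the results below was not tested. Levels are CPM, the counts divided by library sizes after TMM scaling, fold changes are VPS72 over FLAG, and p-values of single genes are from edgeR's quasi-likelihood test, Benjamini-Hochberg (BH) adjusted over all 14253 tested genes.

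None of the 9 genes passed the threshold of 0.05 in edgeR, while DESeq2 and limma-voom each called H2AZ1. All 9 had enough counts to be tested, and 0 were called by edgeR, where 0.617% of all tested genes were called. At an unadjusted p under 0.05 there were 2 of 9, H2AZ1 and H3-3A, against 11.5% of all tested genes. DESeq2 gave an adjusted p to 5 of the 9 and called 1, H2AZ1, against 5.18% of the genes to which it gave one, and limma-voom called 1 of 9, H2AZ1, against 0.898%. The groups did not overlap in 4 of the 9 genes, against 17.2% of all tested genes. In those 4, H2AZ1, H2AJ, MACROH2A1 and H3-3A, all VPS72 libraries lay above all FLAG libraries, as they did in 8.76% of tested genes, and in 0 of the 9 did they all lie below, against 8.47%. The median log2 fold change of the 9 was 0.04, with a range of -0.12 to 0.27, beside a median of -0.0038 for all tested genes.

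**Figure D1:**
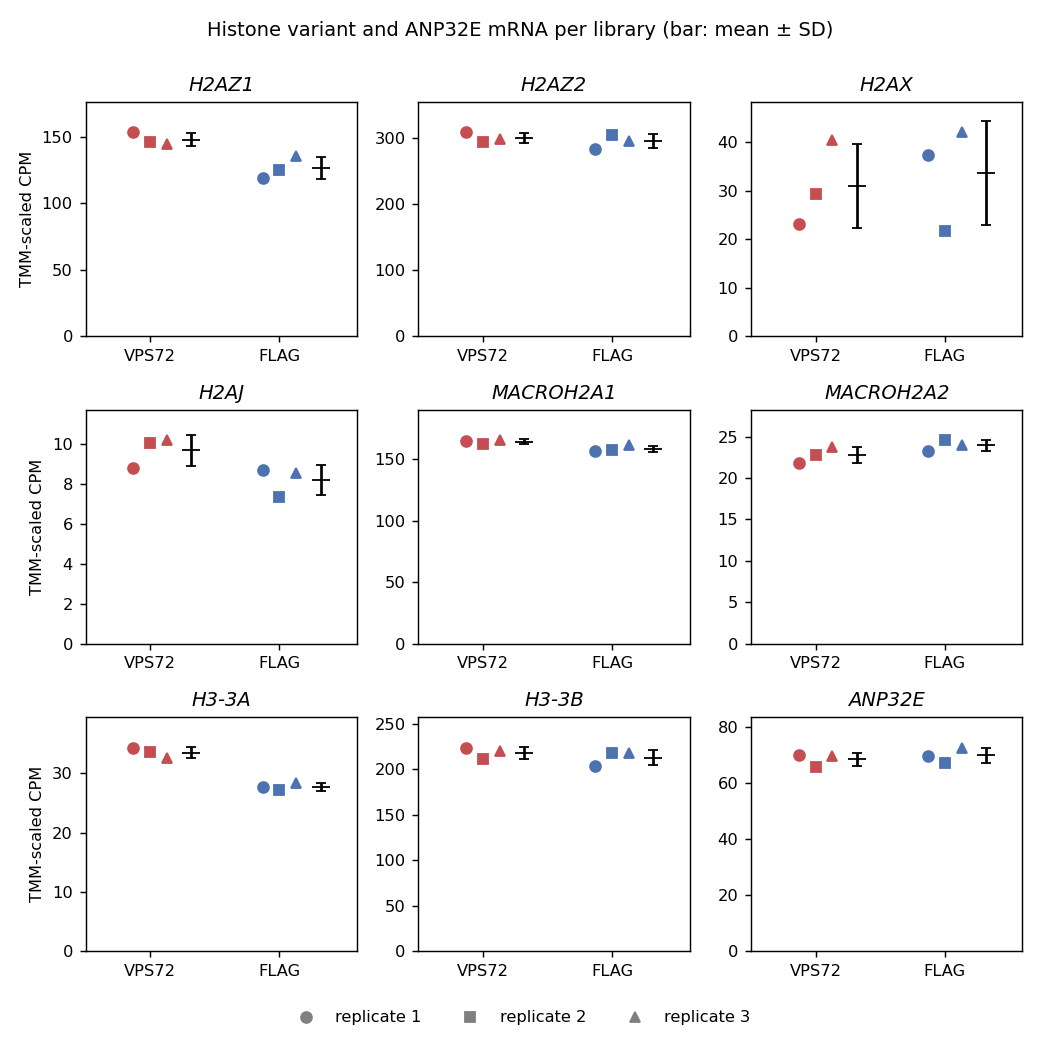
TMM-scaled CPM of the 8 histone variant genes and ANP32E in each of the 3 VPS72 and 3 FLAG libraries, with symbols for the replicate number, bars for mean ± SD and axes that start at 0. H2AZ1, H2AJ, MACROH2A1 and H3-3A are higher in every VPS72 library than in any FLAG library, while H2AX is spread widely in both groups.

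H2AZ1, the gene of the more studied H2A.Z paralog, was higher in all VPS72 libraries. It stood at 153.5, 145.9 and 144.6 CPM in VPS72 replicates 1 to 3, against 119.3, 125.1 and 135.8 CPM in FLAG replicates 1 to 3. The groups did not overlap, and the narrowest gap lay between VPS72 replicate 3 and FLAG replicate 3. The means were 148 ± 4.78 CPM with VPS72 and 127 ± 8.36 CPM with FLAG (SD, n = 3 each). The estimate was 16.9% higher with VPS72, with a 95% interval from 8.55% to 25.8%, and a log2 fold change of 0.22 ± 0.05 (SE; edgeR, BH-adjusted p = 0.0541), just outside the threshold. By unadjusted p it ranked 105 of 14253 genes.

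The H2AZ1 call depended on the method. The adjusted p was 0.00173 with DESeq2, 0.0402 with limma-voom, 0.00066 in edgeR with no filter on low counts, a setting that called 1.06% of genes, and 0.0136 in edgeR with the trend by GC content and transcript length removed, which called 1.78%. It was 0.0996 with library size only, 0.0998 after removal of the abundance trend, both by edgeR. Without FLAG replicate 3, the FLAG library with the most H2AZ1, edgeR's adjusted p was 0.0271, and leaving out FLAG replicate 1 gave 0.294. The estimate itself stayed between 0.18 and 0.28 under all 19 alternatives. With no filter, edgeR's SE of H2AX was 0.08, against 0.20 in the main fit, while that of H2AZ1 was 0.05 in both. The p-values of that setting are therefore less certain.

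H2AZ2, which encodes a protein nearly identical to that of H2AZ1, did not separate the groups. It had 309.1, 294.7 and 299.2 CPM in VPS72 replicates 1 to 3, against 284.5, 305.3 and 296.7 CPM in FLAG replicates 1 to 3. FLAG replicate 2 lay above VPS72 replicates 2 and 3, so the groups overlapped. The difference was 1.87%, with a 95% interval from -3.73% to 7.8% (log2 fold change 0.03 ± 0.04; edgeR, BH-adjusted p = 0.862). Its sign turned with library size only (-0.0046) and after removal of the abundance trend (-0.0082).

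Both H2A.Z genes were read together as a share within each library, which needs no scaling between libraries. H2AZ1 supplied 33.2%, 33.1% and 32.6% of the summed H2AZ1 and H2AZ2 counts in VPS72 replicates 1 to 3, against 29.5%, 29.1% and 31.4% in FLAG replicates 1 to 3. Every VPS72 library was above every FLAG library. The means were 33.0% ± 0.33 with VPS72 and 30.0% ± 1.23 with FLAG, a difference of 2.95 percentage points (SD, n = 3 each; exact two-sided permutation p = 0.1, the smallest that 3 libraries against 3 can give). Reads that fit both paralogs or their pseudogenes are divided by an estimating counter, so the split is less certain than the counts of a single-copy gene. The 7 H2A.Z pseudogene rows together held 0 to 4 counts in VPS72 and 1 to 9 in FLAG libraries.

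The promoter windows of this paralog pair are shown because the pair is compared here, and that of H2AX because it is the other member with the same cell cycle motif. RefSeq windows (GRCh38.p14) run from 250 bases before to 50 bases after an annotated start. They were matched by symbol for 8 of the 9 genes, 12 windows in all, and ANP32E had none. The capitals mark CCAAT, the NF-Y box, and TTTGAA or TTCGAA, the cell cycle homology region, on either strand. The windows lie at chr4:99950226-99950525 (H2AZ1), chr7:44848038-44848337 (H2AZ2) and chr11:119095416-119095715 (H2AX), each on the minus strand and written 5′ to 3′ along the gene.
H2AZ1: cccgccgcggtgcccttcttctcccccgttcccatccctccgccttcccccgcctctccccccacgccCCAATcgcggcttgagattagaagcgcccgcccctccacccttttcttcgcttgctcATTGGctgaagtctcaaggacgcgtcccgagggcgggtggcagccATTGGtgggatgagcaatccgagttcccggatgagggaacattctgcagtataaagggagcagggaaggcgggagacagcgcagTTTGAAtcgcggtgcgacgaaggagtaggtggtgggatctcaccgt
H2AZ2: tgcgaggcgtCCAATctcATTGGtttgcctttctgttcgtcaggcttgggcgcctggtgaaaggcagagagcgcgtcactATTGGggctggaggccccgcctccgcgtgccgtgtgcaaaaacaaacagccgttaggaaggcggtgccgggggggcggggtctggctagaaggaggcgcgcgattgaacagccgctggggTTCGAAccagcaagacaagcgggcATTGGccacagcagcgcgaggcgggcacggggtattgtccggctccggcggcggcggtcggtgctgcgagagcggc
H2AX: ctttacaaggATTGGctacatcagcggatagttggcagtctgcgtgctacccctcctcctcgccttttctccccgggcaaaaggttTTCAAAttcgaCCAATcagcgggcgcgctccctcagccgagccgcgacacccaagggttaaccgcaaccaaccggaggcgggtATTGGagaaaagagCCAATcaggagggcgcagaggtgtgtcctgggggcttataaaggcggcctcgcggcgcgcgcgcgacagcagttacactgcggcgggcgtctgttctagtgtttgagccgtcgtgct
The H2AZ1 window held 3 CCAAT matches, starting at -182, -125 and -80 from the start site, and 1 cell cycle homology match at 5 bases into the transcript. The H2AZ2 window held 4 CCAAT matches and 1 cell cycle homology match at -50, and the H2AX window held 4 CCAAT matches and 1 cell cycle homology match at -164. CCAAT was in 9 of the 12 windows, of 7 genes, and in 34.6% of all 35116 RefSeq windows of that length. A cell cycle homology match was in 3 of the 12 and in 16.4% of all. Searches on both strands for E2F letters (the letters TTTCGCG, the letters TTTCCCG or the letters TTTGGCG, in 7.21% of all windows), the CRE core TGACGT (7.98%) and the AP-1 site TGACTCA (4.95%) found 0 of the 12, and no match overlapped one of another motif. These matches describe letters only, and no binding was measured.

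ANP32E, the remover of H2A.Z, did not differ beyond its spread. It had 69.97, 65.57 and 69.42 CPM in VPS72 replicates 1 to 3, against 69.65, 67.21 and 72.48 CPM in FLAG replicates 1 to 3, and the groups overlapped. The difference was -2.05%, with a 95% interval from -9.16% to 5.61% (log2 fold change -0.03 ± 0.05; edgeR, BH-adjusted p = 0.888), while leaving out VPS72 replicate 2 turned the sign (0.0032). Within a library, the log2 ratio of H2AZ1 to ANP32E counts was 1.133, 1.154 and 1.058 in VPS72 replicates 1 to 3, against 0.776, 0.897 and 0.905 in FLAG replicates 1 to 3. All VPS72 libraries had the higher ratio. The mean difference of 0.26 on the log2 scale had the smallest p that the design allows (exact two-sided permutation p = 0.1, n = 3 each).

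H3.3 is encoded by H3-3A and H3-3B, which specify the same protein with different coding and untranslated sequence, and it marks active genes and some silent repeats. H3-3A, the less abundant of the pair, had 34.29, 33.58 and 32.5 CPM in VPS72 replicates 1 to 3, against 27.62, 27.1 and 28.36 CPM in FLAG replicates 1 to 3. The groups were well apart, with means of 33.5 ± 0.90 and 27.7 ± 0.64 CPM (SD, n = 3 each). The estimate was 20.9% higher with VPS72, with a 95% interval from 8.91% to 34.2% (log2 fold change 0.27 ± 0.07; edgeR, BH-adjusted p = 0.102). It ranked 200 of the 14253 tested genes by unadjusted p (0.00145). Over the alternatives the estimate ran from 0.24 to 0.29 and the adjusted p from 0.0577 to 0.337, and DESeq2 gave it no adjusted p.

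H3-3B had 223.6, 210.9 and 220.4 CPM in VPS72 replicates 1 to 3, against 203.1, 217.3 and 217.4 CPM in FLAG replicates 1 to 3. The ranges overlapped, and the difference was 2.69%, with a 95% interval from -3.44% to 9.21% (log2 fold change 0.04 ± 0.04; edgeR, BH-adjusted p = 0.80). H3-3A made up 13.3%, 13.7% and 12.9% of the summed H3-3A and H3-3B counts in VPS72 replicates 1 to 3, against 11.97%, 11.1% and 11.5% in FLAG replicates 1 to 3. All VPS72 libraries were above all FLAG libraries, by 1.76 percentage points on average (exact two-sided permutation p = 0.1, n = 3 each). Processed copies of H3 genes can take or give reads, so the H3-3A level is uncertain. The 10 H3 pseudogene rows held 91 to 108 counts in VPS72 and 84 to 105 in FLAG libraries, most of them in H3P6, beside 770 to 987 counts of H3-3A in VPS72 and 610 to 709 in FLAG libraries.

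**Figure D2:**
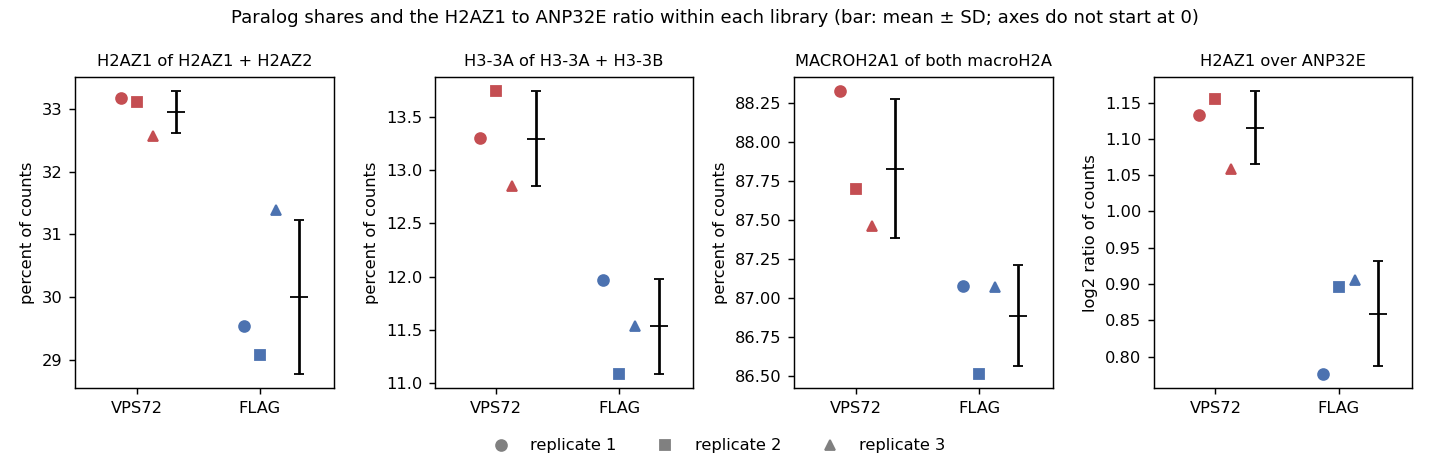
Share of counts from 1 paralog of each pair, and the log2 ratio of H2AZ1 to ANP32E counts, in each of the 3 VPS72 and 3 FLAG libraries, with bars for mean ± SD and axes that do not start at 0. All VPS72 libraries lie above all FLAG libraries in each panel, with exact p = 0.1 for each, the smallest value possible with 3 against 3.

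The macroH2A variants carry a large macro domain behind the histone fold and are known for compacted chromatin and the inactive X chromosome. MACROH2A1, the more abundant of the pair, had 165.3, 162.5 and 165.8 CPM in VPS72 replicates 1 to 3, against 156.7, 157.7 and 161.6 CPM in FLAG replicates 1 to 3. The VPS72 libraries were all higher but by little, 3.72% with a 95% interval from -2.09% to 9.87% (log2 fold change 0.05 ± 0.04; edgeR, BH-adjusted p = 0.665). MACROH2A2 had 21.85, 22.79 and 23.76 CPM in VPS72 replicates 1 to 3, against 23.26, 24.59 and 23.99 CPM in FLAG replicates 1 to 3. Its groups overlapped between VPS72 replicate 3 and FLAG replicate 1 (log2 fold change -0.07 ± 0.08; edgeR, BH-adjusted p = 0.809), and the 95% interval ran from -15.5% to 7.23%. MACROH2A1 made up 87.8% ± 0.45 of the macroH2A counts with VPS72 and 86.9% ± 0.32 with FLAG (SD; exact two-sided permutation p = 0.1, n = 3 each).

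H2AJ encodes H2A.J, a variant known to build up in senescent fibroblasts. It was the least abundant member by CPM, with 8.79, 10.07 and 10.21 CPM in VPS72 replicates 1 to 3, against 8.73, 7.33 and 8.55 CPM in FLAG replicates 1 to 3. VPS72 replicate 1 and FLAG replicate 1 were almost level. The estimate was 18.05% higher, but its 95% interval ran from -2.66% to 43.2% (log2 fold change 0.24 ± 0.13; edgeR, BH-adjusted p = 0.515). It had 242 to 266 counts in VPS72 and 184 to 224 counts in FLAG libraries, and its groups did not overlap.

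H2AX encodes H2A.X, whose phosphorylated form marks DNA breaks, and it was by far the most variable member. It had 23.21, 29.38 and 40.43 CPM in VPS72 replicates 1 to 3, against 37.4, 21.61 and 42.08 CPM in FLAG replicates 1 to 3. The groups overlapped almost fully. The coefficient of variation was 28.1% within VPS72 and 31.8% within FLAG, where the other 8 members had 1.09% to 8.09% within VPS72 and 1.63% to 9.26% within FLAG. The log2 fold change was -0.12 ± 0.20 (edgeR, BH-adjusted p = 0.882), with a 95% interval from -31.4% to 23.2%. Leaving out VPS72 replicate 1 (0.06) or FLAG replicate 3 (0.07) turned its sign.

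The 2 libraries lowest in H2AX, VPS72 replicate 1 and FLAG replicate 2, were also the lowest in other GC-rich genes. The H2AX transcript is 66.4% G and C, the highest share among the 9. In the 2025 tested genes with at least 60% GC, the median log2 deviation from the mean of the 6 libraries was -0.10, 0.06 and 0.02 in VPS72 replicates 1 to 3, against 0.04, -0.09 and 0.11 in FLAG replicates 1 to 3. H2AX deviated by -0.43, -0.09 and 0.37 in VPS72 replicates 1 to 3, against 0.26, -0.53 and 0.43 in FLAG replicates 1 to 3. The summed clustered H2A genes deviated by -0.28, 0.10 and 0.08 in VPS72 replicates 1 to 3, against 0.13, -0.30 and 0.26 in FLAG replicates 1 to 3. These 2 libraries were the lowest in all 3 measures, while VPS72 replicate 2 was below the mean in H2AX and above it in the other 2. Their part in the spread of H2AX was not tested. With the trend by GC content and length removed, H2AX stood at 26.3, 27.9 and 38.8 CPM in VPS72 replicates 1 to 3, against 35.2, 24.1 and 37.8 CPM in FLAG replicates 1 to 3, and its log2 fold change was -0.07 (edgeR, BH-adjusted p = 0.896). Without those 2 libraries, a choice made after seeing the data, H2AZ1 had a log2 fold change of 0.19 (edgeR, BH-adjusted p = 0.172), H3-3A of 0.24 (adjusted p = 0.337) and H2AX of -0.19 (adjusted p = 0.567).

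**Figure D3:**
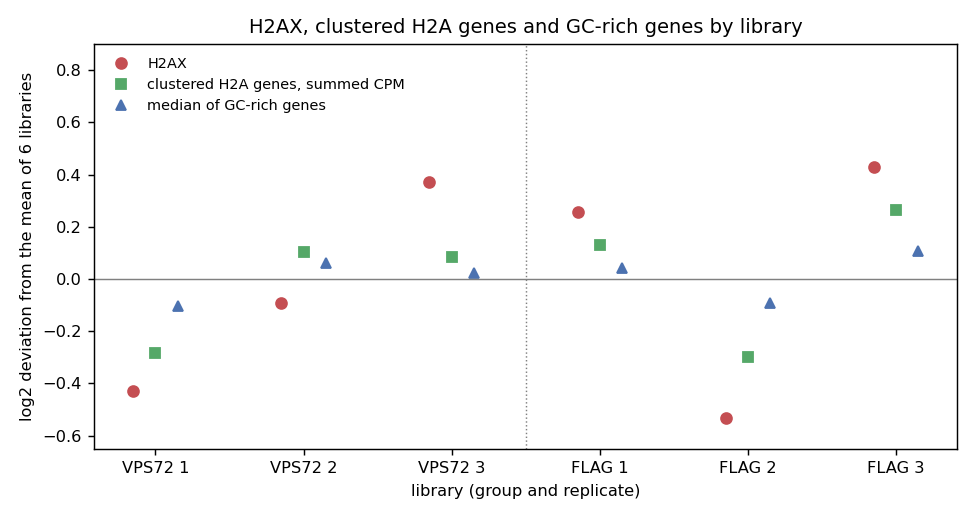
Log2 deviation from the mean of the 6 libraries for H2AX, for the summed CPM of the 15 clustered H2A genes and for the median of tested genes with at least 60% GC, by library. VPS72 replicate 1 and FLAG replicate 2 are the lowest in each measure, at -0.43 and -0.53 for H2AX.

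**Figure D4:**
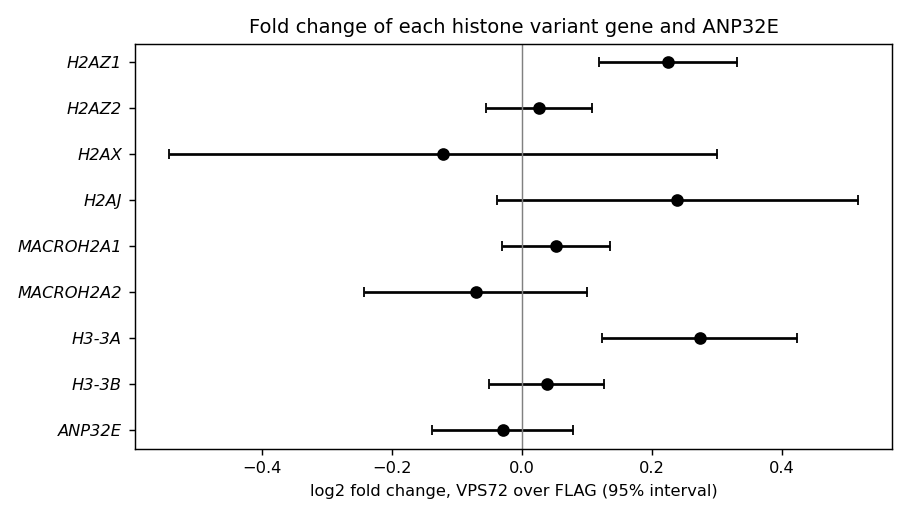
Log2 fold change of VPS72 over FLAG for each of the 9 genes, with the 95% interval from the edgeR fit. The intervals of H2AZ1 (0.12 to 0.33) and H3-3A (0.12 to 0.42) lie above 0, and that of H2AX is the widest, from -0.54 to 0.30.

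Levels per kilobase of transcript were compared between the members in the FLAG libraries. With the median length of a gene's protein-coding transcripts (GENCODE 29), the levels were 450 ± 15.9 CPM per kb for H2AZ2, 313 ± 12.1 for H3-3B, 129 ± 8.54 for H2AZ1, 85.3 ± 1.39 for MACROH2A1 and 52.1 ± 1.97 for ANP32E (SD, n = 3). Below them came H3-3A at 23.1 ± 0.53, H2AX at 20.9 ± 6.65, H2AJ at 12.7 ± 1.18 and MACROH2A2 at 12.1 ± 0.34 CPM per kb. H3-3A and H2AX did not differ beyond their spread, nor did H2AJ and MACROH2A2. The order rests on the transcript length assumed, except for MACROH2A1, H3-3B, H2AJ and MACROH2A2, which kept their places. With the longest transcript of each gene, H2AZ1 came first at 129 CPM per kb, and H3-3B at 78.6 and H2AZ2 at 77.7 followed close together. H2AX at 20.9 CPM per kb then stood above ANP32E at 20.2 and H3-3A at 14.9.

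H2AZ1 mRNA is often higher in dividing cells, so a list of proliferation genes was set beside it. All 27 listed genes were tested, and 1 rose, 0 fell and 26 did not pass in edgeR, with a median log2 fold change of 0.12 and positive estimates in 27 of 27, beside 48.8% of all tested genes. At an unadjusted p under 0.05 there were 15 of the 27, against 11.5% of all tested genes, and in 14 all VPS72 libraries lay above all FLAG libraries, against 8.76%. The one that rose was CCNB2, cyclin B2, with 47.0 ± 0.82 CPM with VPS72 and 38.3 ± 1.35 CPM with FLAG (log2 fold change 0.29 ± 0.06; edgeR, BH-adjusted p = 0.0419). The summed level of the 27 genes was 4979 to 5039 CPM in VPS72 and 4567 to 4640 CPM in FLAG libraries, with no overlap, as for H2AZ1. Their part in the H2AZ1 difference was not tested. Without each single library in turn, 0 of the 27 passed, and CCNB2's adjusted p then ran from 0.0674 without FLAG replicate 2 to 0.21 without FLAG replicate 1 in edgeR. DESeq2 called 8 of the 25 to which it gave an adjusted p, all higher, against 5.18% of all genes with one. Limma-voom called 4 of the 27, against 0.898%, and edgeR with no filter on low counts 7, against 1.06%.

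The genes whose pattern over the 6 libraries was most like that of H2AZ1, out of 10413 with a mean of at least 5 CPM, were DBI, COL27A1, SEC11A, GALM and KCTD10, with Pearson r in log2 CPM of 0.997, 0.993, 0.992, 0.99 and 0.988. DBI, an acyl-CoA binding protein, had 265 ± 3.43 CPM with VPS72 and 247 ± 8.14 CPM with FLAG (log2 fold change 0.10 ± 0.04). These 6 points share libraries and groups, and 59 genes had r above 0.95, so the values only describe likeness.

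The machinery around the variants was examined by list. Of 30 subunits of the SRCAP, TIP60 and INO80 complexes other than VPS72, 29 were tested. In edgeR 0 passed, against 0.617% of all tested genes, and the median log2 fold change was 0.01. At an unadjusted p under 0.05 there were 5, against 11.5% of all tested genes. The smallest p-values belonged to EPC1, a TIP60 scaffold (-0.20 ± 0.05; edgeR, BH-adjusted p = 0.131), and INO80, the ATPase of its complex (0.18 ± 0.05; edgeR, adjusted p = 0.139). EPC1 was called lower by DESeq2, which gave an adjusted p to 15 of the 29, and by edgeR with no filter on low counts, and limma-voom called 0. Of 10 ANP32 family and H2A-H2B chaperones, 0 passed in edgeR, DESeq2 or limma-voom and 1 had an unadjusted p under 0.05, SUPT16H, a FACT subunit (0.10 ± 0.04), while ANP32A, a paralog of ANP32E, stood at -0.08 ± 0.05.

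Of all tested genes, 0.617% were called by edgeR and 0.898% by limma-voom, and 11.5% had an unadjusted p under 0.05. DESeq2 called 5.18% of the genes to which it gave an adjusted p. In the lists above and those that follow, 0 in DESeq2 covers only the genes to which it gave an adjusted p. These were all 10 of the ANP32 and H2A-H2B chaperones, 5 of the 7 H3.3 chaperones, 4 of the 10 replication-coupled chaperones, 12 of the 14 genes of H2AX signalling, 25 of the 50 S-phase histones and 4 of the 7 processing factors. Of 7 H3.3 chaperones of the HIRA and DAXX-ATRX routes, 0 passed in edgeR, DESeq2 or limma-voom and 1 had an unadjusted p under 0.05, with a median of -0.02, among them the HIRA partners UBN2 (-0.14 ± 0.05) and ASF1A (-0.10 ± 0.06). Of 10 replication-coupled H3-H4 chaperones, 0 passed in edgeR or limma-voom and 0 of 4 in DESeq2, and 2 had an unadjusted p under 0.05, TONSL (-0.27 ± 0.10) and MCM2 (0.12 ± 0.05). Of 14 tested genes of H2AX signalling, which phosphorylate, read or clear the mark, 0 passed in the 3 tools, 1 had an unadjusted p under 0.05 and the median was -0.05. MDC1, the main reader of phosphorylated H2A.X, had -0.12 ± 0.05, and PRKDC, a kinase that makes it, had 0.06 ± 0.03.

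The S-phase histones gave no call in these tools. Of 64 listed clustered genes, 62 were in the table and 50 were tested. In edgeR and limma-voom 0 passed, against 0.617% and 0.898% of all tested genes. In DESeq2 0 of 25 passed, against 5.18% of the genes to which it gave an adjusted p. At an unadjusted p under 0.05 there were 5, against 11.5% of all tested genes. In edgeR with no filter on low counts, H3C7, named after its values were seen, was called lower. Their median log2 fold change was -0.07, and 16 of the 50 estimates were positive, beside 6 of 9 for the variants and ANP32E and 48.8% of all tested genes. The median was -0.0237 without VPS72 replicate 1, turned to 0.0193 without FLAG replicate 3, and was -0.123 without FLAG replicate 2. H2BC7 (-0.29 ± 0.07; edgeR, BH-adjusted p = 0.099) and H1-3 (-0.60 ± 0.21; edgeR, adjusted p = 0.254) had the smallest p-values. With the trend by GC content and length removed, edgeR called H2BC7 lower, 1 of 47, against 1.78% of genes. Summed over the 15 clustered H2A genes, the level was 632 ± 90.5 CPM with VPS72 and 664 ± 129 CPM with FLAG (SD, n = 3 each; exact two-sided permutation p = 0.6). The sums of the H1, H2B, H3 and H4 genes gave exact p from 0.5 to 1. Of 7 factors that process stem-loop histone mRNA, 0 passed in the 3 tools and 0 had an unadjusted p under 0.05, with SLBP, which binds the stem-loop, at 0.10 ± 0.07 and NPAT, which drives clustered histone transcription, at -0.09 ± 0.06.

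**Figure D5:**
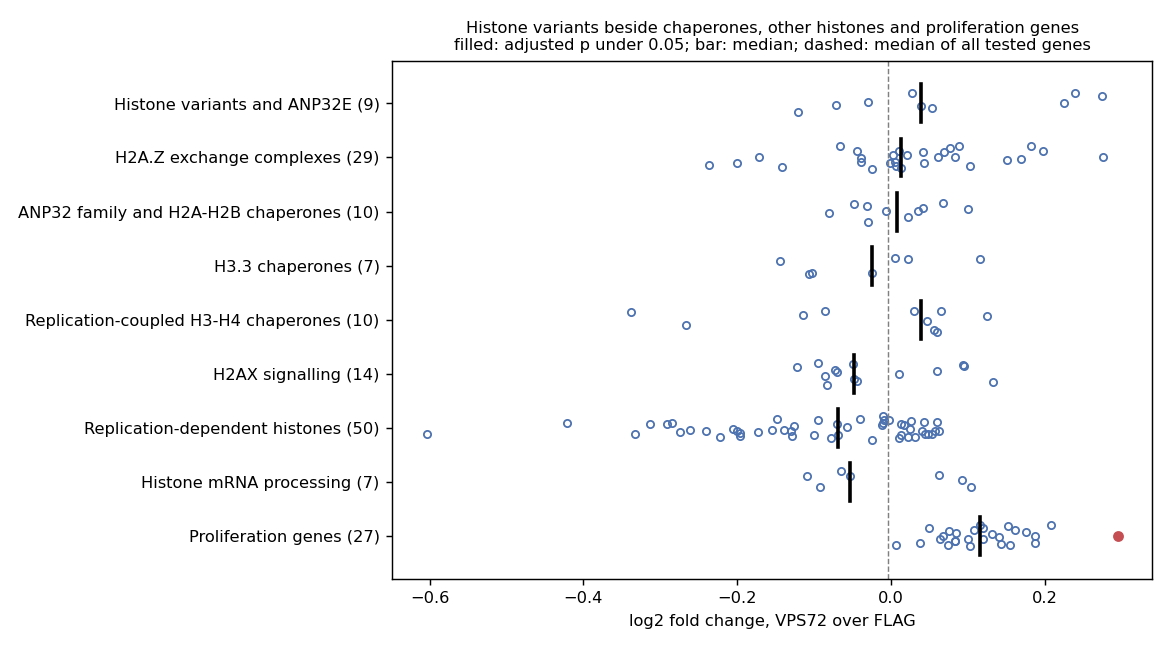
Log2 fold change of VPS72 over FLAG for each tested gene of the variant set and of 8 lists, with list medians as bars, the median of all tested genes as a dashed line, filled points for adjusted p under 0.05 and the number tested in brackets. The filled point is CCNB2, and all 27 proliferation genes lie right of 0.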

How the data were processed

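RNA from 3 VPS72 and 3 FLAG infected Huh7 samples was sequenced, with groups and replicate numbers taken from the sample titles. The authors deposited 1 table of estimated counts per gene symbol, as whole numbers and not normalized. Per the submitters' processing notes STAR, RSEM and limma and the builds hg19 and hg38 were used, without role or order. No source used here gives versions, annotation, strand use or rounding.

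Genes were filtered with filterByExpr (minimum count 10, minimum total 15), which left 14253 genes with 99.9% of the counts. After TMM scaling, the quasi-likelihood test of edgeR 4.0.16 (R 4.3.3) set the groups against each other, with a threshold of 0.05 on p-values that were Benjamini-Hochberg adjusted over all tested genes. Standard errors are the log2 fold change divided by the square root of F, and intervals are at 95%. The common coefficient of variation was 7.24%. Pairs of libraries within a group differed by more than sampling noise (chi-square per degree of freedom 4.7 to 7.69), so all 6 counted as separate libraries. Only the main edgeR fit was tested on simulated data.

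Shares within a library were compared by exact permutation tests. DESeq2 1.42.0 and limma 3.58.1 (voom) were alternatives, with other scalings, filters, trend removal, a replicate block and libraries left out. DESeq2's own filter gives no adjusted p to many genes, which stay without one. Lengths and GC content came from GENCODE 29 transcripts, which had 99.9% of the tested genes. Named list genes are those past the threshold, at most 4 by p, or otherwise the 2 with the smallest p. The 5 genes most like H2AZ1 were taken by Pearson r. The members, lists and rule were chosen with earlier results of these data known. Protein sequences were not used here, and 1 further list of histone genes is not reported here.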

Additional observations from a re-analysis of the deposited data

How the results depend on the processing

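Fold changes of H2AJ, MACROH2A1, MACROH2A2, H3-3A and H3-3B kept their direction and their side of the threshold under every alternative run, though DESeq2 gave no adjusted p for H2AJ, MACROH2A2 and H3-3A. The 4 within-library measures kept their direction, and their exact tests cannot reach 0.05 in any of these settings. For H2AZ1 the log2 fold change was 0.23 with no filter, 0.23 with DESeq2, 0.23 with limma-voom and 0.22 with the GC content and length trend removed, and all 4 passed the threshold. With libraries left out it ran from 0.18 to 0.28 and passed without FLAG replicate 3. That of H2AZ2 was -0.0046 with library size only and -0.0082 with the abundance trend removed. With libraries left out H2AX ran from -0.362 to 0.0666 (0.0581 without VPS72 replicate 1) and ANP32E from -0.0739 to 0.0032, and the cause was not tested.

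Over all genes 88 changed by edgeR. The count was 264 with no filter, 268 with DESeq2, 253 with the GC content and length trend removed, 54 with the abundance trend removed, 32 at a threshold of 0.01, 32 with a block for the replicate number, and 25 to 100 with 1 library left out. It was 35, 52 and 56 without VPS72 replicates 1 to 3, and 25 and 42 without FLAG replicates 1 and 3. Higher and lower calls were 60 and 28 with TMM, 44 and 32 with upper quartile scaling, 32 and 54 with library size only, and 27 and 27 with the abundance trend removed. Calls in the proliferation list numbered 8 of 25 with DESeq2 and 7 of 27 with the GC content and length trend removed. They numbered 0 with library size only, with the abundance trend removed and with any library left out. The H2A.Z exchange list had 1 of 15 with DESeq2 and the S-phase histones 1 of 47 with the GC content and length trend removed. With no filter there were 7 of 27 in the proliferation list, 1 of 30 in the exchange list and 1 of 61 among the S-phase histones. Over all genes with an adjusted p, the shares called were 5.18% with DESeq2, 1.78% with the GC content and length trend removed and 1.06% with no filter.

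Libraries with the same replicate number did not deviate together (correlations -0.209, -0.072 and 0.157), and the main fit used no pairing. With 3 libraries per group, each taken about its group mean, these correlations cannot exclude a shared batch. With the replicate block H2AZ1 had a log2 fold change of 0.23, H3-3A 0.27 and the H2AZ1 share a difference of 2.95 percentage points, none past the threshold, and the call of CCNB2 (adjusted p = 0.124) was lost in edgeR. By the same measure, VPS72 replicate 1 correlated best with FLAG replicate 2 (0.336). Intervals cover these libraries only.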
